A study of Mus musculus with 46 samples.

Results

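White adipose tissue (WAT) of male mice treated with PTP-r was compared with that of male mice given vehicle. The 11 libraries are those whose titles mark them as male WAT, 6 labelled PTP-r (libraries 1, 2, 5, 6, 7 and 11) and 5 labelled vehicle (libraries 3, 4, 9, 10 and 12), out of 46 libraries in the series. The 12 libraries of female WAT were fitted together with them and so share the filter and the estimate of spread behind the male p-values, and the liver libraries of both sexes entered a further fit for the contrast between organs. All animals were wild-type C57Bl/6 mice fed, from 7 weeks of age and for 21 weeks, a high-fat diet (HFD), under a reversed cycle of light and dark. During the last 5 weeks, from week 16 of the diet, they received subcutaneous injections of phosphate-buffered saline as vehicle or of PTP-r at 1 mg/kg/day, so the obesogenic diet is common to both groups. PTP-r is a code name from a series on a mixed-chirality peptide that targets prohibitin. The labels name no fat depot and leave unsaid whether the libraries stand for different mice, and the p-values therefore reflect only how these libraries vary, in part perhaps technically.

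Prohibitins form ring-shaped scaffolds in the inner membrane of mitochondria and occur as well on the surface of some cells, including endothelial cells and adipocytes. White fat stores triglyceride in adipocytes and also holds endothelial cells, pericytes, progenitors, macrophages and, around visceral depots, a mesothelial lining. Adipocytes make cholesterol from acetyl-CoA through the mevalonate pathway, and the genes of that pathway are induced together by the transcription factor SREBP2 when sterols in the endoplasmic reticulum are low. Triglyceride synthesis and leptin output rise with fat storage and insulin.

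PolyA RNA gave between 20991069 and 32219751 reads on genes per library, with a median of 25165263. Levels are given as CPM, read counts per gene set to a common library total and scaled between libraries by the trimmed mean of M-values (TMM). Vehicle values are listed in the order of libraries 3, 4, 9, 10 and 12, and PTP-r values as the lowest, the median and the highest of the 6 libraries. Fold changes are on the log2 scale, PTP-r minus vehicle, with their standard error (SE) and p-values from edgeR's quasi-likelihood test. The adjusted p is the Benjamini-Hochberg value over the 17765 genes tested, and a gene was called at an adjusted p under 0.05.

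Several libraries stood apart in markers of other tissues, so these are given before the comparison. The library PTP-r 1 had a median Spearman correlation of 0.909 with the other 10 male WAT libraries, against 0.972 to 0.985 for each of those. Summed epididymis markers were 105, 178 and 129 CPM in PTP-r 1, PTP-r 2 and vehicle 9, against 11.6 to 41.1 CPM in the other libraries; only 10 of the 32 listed markers had a mean of at least 1 CPM, among them Lcn5, Gpx5 and Adam7, products of the epididymal epithelium. Testis and sperm markers, such as the protamine gene Prm2 and Ldhc, summed to 632 and 343 CPM in PTP-r 1 and PTP-r 2. Their sum was 6.65 to 45.9 CPM elsewhere. Within that list, the seminal vesicle genes Svs2, Svs4 and Svs5 were at 5.42, 4.37 and 6.96 CPM in vehicle 4. The highest values of these genes in the other libraries were 0.09, 0.075 and 1.31 CPM. Skeletal muscle markers reached 501 CPM in vehicle 3 alone, the others lying between 54.2 and 84.2 CPM. The library PTP-r 7 held 5189 CPM of B and plasma cell markers, mostly immunoglobulin constant regions, against 709 to 1630 CPM in the other 10. The sums of these 4 lists did not pass between treatments, with exact permutation p-values over libraries of 0.942, 0.724, 0.154 and 0.901 after adjustment over 21 marker lists. By gene, 17 of 22 B and plasma cell markers were higher (13.9% of all genes) and 11 of 19 muscle markers lower (6.93% of all genes) at an unadjusted p under 0.05 in edgeR's fit, and edgeR called 0 of them at the adjusted threshold.

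Markers of the mesothelium, the cell sheet that covers visceral fat, separated the treatment groups in part. Their sum was 218, 137, 156, 227 and 256 CPM in the vehicle libraries and 241, 481 and 677 CPM in the PTP-r libraries. Only the lowest PTP-r library lay below the highest vehicle library. Part of the sum in PTP-r 1, also high in epididymis and testis markers, came from the keratins Krt8, Krt18 and Krt19, at 115, 58.2 and 67.3 CPM. Krt8 was 4.37 to 9.75 CPM in the other PTP-r libraries and 30.4 CPM in vehicle 10. Upk3b was 70.2 CPM in PTP-r 1 and 107 CPM in PTP-r 5. The difference in mean log2 sum was 1.20 (exact permutation test, two-sided, p = 0.00649, 0.0341 after Benjamini-Hochberg adjustment over 21 marker lists). All 16 markers tested had a positive fold change and 14 passed an unadjusted p under 0.05 (13.9% of all genes were higher at that p), but edgeR called 0 of them, DESeq2 11 and limma voom 1. Over all genes, in either direction, edgeR called 155, DESeq2 1135 and limma voom 1120. Summed markers of pericytes and smooth muscle were 1380, 1602, 1648, 1554 and 1368 CPM with vehicle and 1050, 1134 and 1250 CPM with PTP-r, with no overlap and a difference of -0.39 (p = 0.00216, the smallest that 6 against 5 libraries allow, exact permutation test, 0.0341 adjusted). The summed markers of lipid-associated macrophages, which include the adipocyte lipase gene Lpl, differed by -0.37 and those of pancreas, where Cela1 was the 1 gene tested, by -0.60, each with an adjusted p of 0.0341 by the same exact permutation test. Lpl had a mean of 9538 CPM, and Cd36, also on that list and made by adipocytes, 4551 to 5230 CPM with vehicle. The whole sum was 19660 to 22490 CPM with vehicle, so it says little about macrophages. By gene, edgeR called 0 of the 16 markers, and 3 were lower at an unadjusted p under 0.05 (6.93% of all genes). These 4 adjusted calls on marker sums were each lost in 10 of the 11 repeats without 1 library, all but that without PTP-r 6. Leaving out a library raises the smallest p that the exact test allows, so a call can be lost with the groups still apart. This held for pericytes and smooth muscle, whose sums do not overlap. The differences ranged from 1.07 to 1.37 for mesothelium and -0.43 to -0.36 for pericytes and smooth muscle. They ranged from -0.42 to -0.24 for lipid-associated macrophages and -0.67 to -0.43 for pancreas. The 4 calls were also lost when single markers were averaged in place of summed, and the pancreas value turned to 0.16. Macrophage markers ranged from 2025 to 4915 CPM over the vehicle libraries and from 1567 to 5244 CPM over the PTP-r libraries, a full overlap. In whole tissue, fewer cells of a type and less RNA per cell cannot be told apart.

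**Figure D1:**
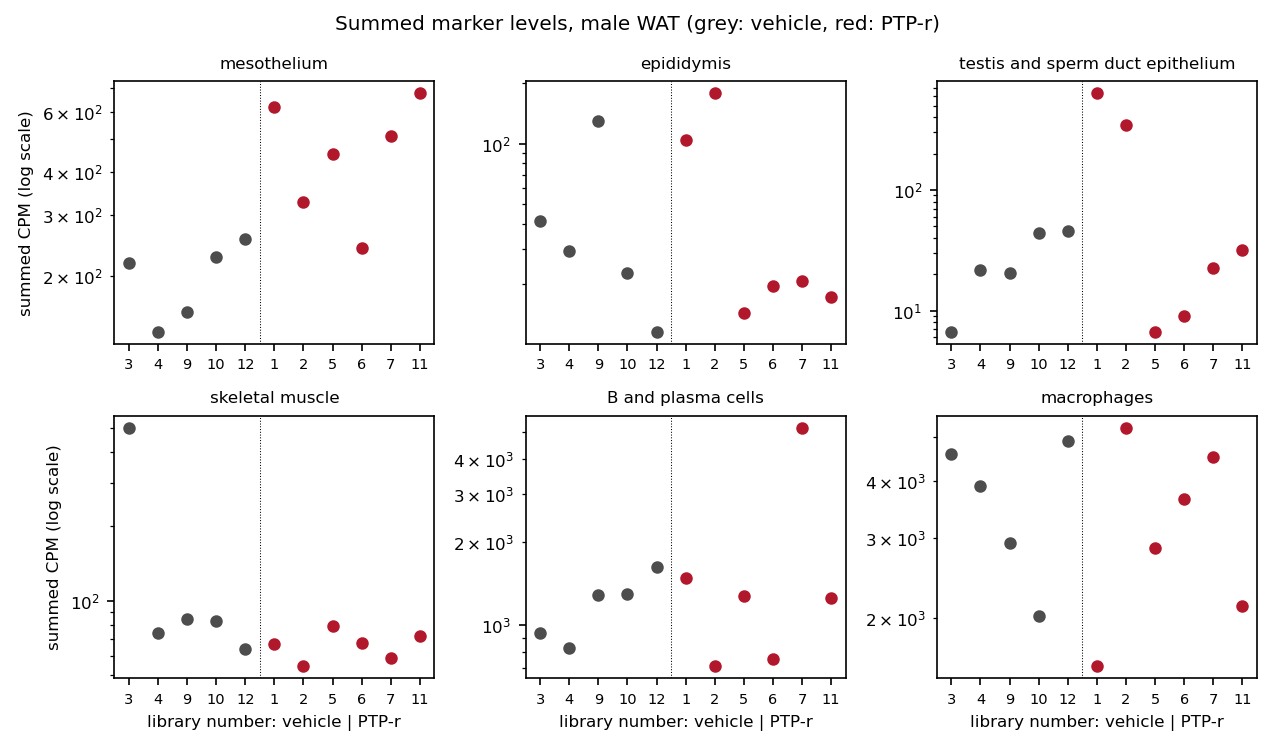
Summed CPM of marker genes of other cell types and tissues in each male WAT library (log axis), 1 point per library, 1 panel per marker list, vehicle in grey on the left and PTP-r in red on the right. Epididymis markers are high in PTP-r 1, PTP-r 2 and vehicle 9, muscle markers in vehicle 3 and B cell markers in PTP-r 7, while mesothelium markers are higher in most PTP-r libraries.

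In male WAT, 155 of the 17765 genes differed between PTP-r and vehicle (0.873%), with 82 higher (0.462%) and 73 lower (0.411%). The changes were modest, with a median fold of 1.49 among the genes called higher and 1.58 among those called lower, and the median log2 fold change of all genes was 0.04. The PTP-r and vehicle values did not overlap for 129 of the 155, against 728 of all genes tested (4.1%). The genes that fell were led by enzymes of cholesterol synthesis, and the genes that rose included Apoe, Cyp27a1, Gpx3, Cbx7 and Irf7.

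How many genes passed rested on the libraries fitted. With only the 11 male libraries in the fit edgeR called 113 genes, of which 56 were among the 155. The count was 0 without vehicle 4, 14 without vehicle 3, 39 without vehicle 9 and 47 without vehicle 12; it was 33 without PTP-r 6, 41 without PTP-r 7, 84 without PTP-r 1 and 272 without PTP-r 2. It was 50 without both PTP-r 1 and PTP-r 2, and 0 without the 5 libraries high in markers of epididymis, muscle or B cells or with the mesothelium sum as a covariate, although 153 to 155 of the 155 genes kept the sign of their fold change in each of those fits. Vehicle 4, with its seminal vesicle transcripts, was not among those 5 libraries. Fits with a covariate held only the 11 male libraries, so their counts stand beside 113 rather than 155. The mesothelium sum itself differed between treatments, so that fit cannot tell treatment from mesothelium content.

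Of the called genes named below, 35 were each tested again without each of the 11 male libraries. All 35 calls ended without vehicle 4, at adjusted p-values of 0.0614 to 0.196. Lss, Cyp51, Hsd17b7, Idi1, Stk38l, Pcdh12, Ppic and Irf7 were called in the other 10 fits. Mvd, Ebp, Tmem38b, Rrad, Apoe, Cyp27a1, Cbx7, Ankzf1 and Gm44220 ended also without vehicle 3, at 0.0553 to 0.085. Gm20559 and Gstt1 were called in 8 of the 11 fits, Angptl8, Gpx3 and Zfp579 in 7, Col4a2 and Sfi1 in 6, Hoxa5 and Fam193b in 5, Cebpd, Col4a1 and Serpina3m in 4, Pck1, Sparc and Wnt5a in 3, Serpina3n in 2, Gata6 in 1 and S100a8 in 0, and no adjusted p was above 0.196.

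Genes of cholesterol synthesis and uptake were lower in the PTP-r libraries along most of the pathway. Of 22 listed genes, 9 fell and 0 rose by the adjusted test, against a background of 0.411% of all genes called lower. At an unadjusted p under 0.05, 19 were lower (6.93% of all genes), and in 13 the groups did not overlap (2.33% of all genes in that direction). The median log2 fold change of the list was -0.69, against 0.04 for all genes. Their summed level was 2086, 2240, 1881, 1804 and 2131 CPM in the vehicle libraries and 1037, 1252 and 1400 CPM in the PTP-r libraries, so that every PTP-r library lay below every vehicle library. The list was set with earlier results of these data known, and 18 of its genes are described one by one.

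Of the early steps, Hmgcs1, Mvk and Pmvk did not pass. Hmgcs1, which condenses acetoacetyl-CoA with acetyl-CoA, had 464, 551, 504, 485 and 457 CPM with vehicle and 223, 347 and 447 CPM with PTP-r. The groups did not overlap, but the gene did not pass (log2 fold change -0.54 ± 0.19, adjusted p = 0.124). Mevalonate kinase (Mvk) gave -0.32 ± 0.12 and phosphomevalonate kinase (Pmvk) -0.64 ± 0.16, with adjusted p-values of 0.136 and 0.0530.

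From the isoprenoid steps onward the calls began. Mvd (ENSMUSG00000006517, chromosome 8, 122433601 to 122443422, in mm10 coordinates as are all positions here), which makes isopentenyl pyrophosphate, had 23.1, 20.5, 21.2, 15.4 and 20.9 CPM with vehicle and 9.63, 10.03 and 10.97 CPM with PTP-r. Every PTP-r library lay well below the lowest vehicle library, and the gene fell by 0.99 ± 0.17 on the log2 scale (adjusted p = 0.0156). Idi1, which isomerises that product, had 12.8, 13.4, 13.6, 11.04 and 14.3 CPM with vehicle and 6.77, 7.73 and 8.79 CPM with PTP-r. It fell by 0.75 ± 0.13 without overlap (adjusted p = 0.0156). Fdps, farnesyl pyrophosphate synthase, was read at only 1.75 to 3.14 CPM with vehicle and 0.709 to 1.80 CPM with PTP-r and did not pass (-0.93 ± 0.28, adjusted p = 0.0901). The enzymes that form and oxidise squalene did not pass, with 0.34 ± 0.18 for squalene synthase (Fdft1, adjusted p = 0.286) and -0.56 ± 0.21 for squalene epoxidase (Sqle, adjusted p = 0.135).

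The enzymes after squalene gave most of the calls. Lanosterol synthase, Lss (ENSMUSG00000033105, chromosome 10, 76531588 to 76557138), which closes the sterol rings and had the largest fall among the enzymes, was at 95.3, 94.98, 81.5, 63.8 and 82.8 CPM with vehicle and 27.4, 41.1 and 44.8 CPM with PTP-r. The groups were far apart, and Lss fell by 1.08 ± 0.18 (adjusted p = 0.0122); its lowest value was in PTP-r 1. Cyp51 (ENSMUSG00000001467, chromosome 5, 4081145 to 4104746), the lanosterol demethylase, had 59.8, 64.6, 46.9, 42.7 and 59.01 CPM with vehicle and 22.96, 27.6 and 31.6 CPM with PTP-r. It fell by 0.97 ± 0.16 without overlap (adjusted p = 0.0122). Hsd17b7 (ENSMUSG00000026675, chromosome 1, 169949535 to 169969241), a 3-ketosteroid reductase, had 24.01, 28.96, 18.7, 19.3 and 21 CPM with vehicle and 9.54, 12.1 and 13.5 CPM with PTP-r. It fell by 0.95 ± 0.15 (adjusted p = 0.0122), again with no library of one group inside the range of the other. Nsdhl, which removes the carbon-4 carboxyl group, fell by 0.90 ± 0.18 (adjusted p = 0.0301), with 69.3 to 98.5 CPM under vehicle and 37.7 to 52.1 CPM under PTP-r.

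Dhcr7 and Ebp fell as well. Dhcr7, the 7-dehydrocholesterol reductase, ranged over 39.2 to 60.7 CPM with vehicle and 17.3 to 31.8 CPM with PTP-r and fell by 0.84 ± 0.16 (adjusted p = 0.0184). Ebp, the sterol isomerase, which is not on the list but was among the leading genes, fell by 0.38 ± 0.07 (adjusted p = 0.0156), with 37.8 to 46.2 CPM under vehicle and 29.9 to 35.95 CPM under PTP-r. Msmo1, a sterol methyl oxidase, and Sc5d, a desaturase, just missed the threshold, with -0.46 ± 0.11 (adjusted p = 0.0501) and -0.59 ± 0.15 (adjusted p = 0.0557).

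Among the genes that regulate the pathway, Insig1 fell and Srebf2 did not pass. Insig1, whose protein retains SREBP precursors in the endoplasmic reticulum and which is itself an SREBP target, had 518, 563, 401, 406 and 546 CPM with vehicle and 164, 221 and 273 CPM with PTP-r. It had the largest fall of the list, 1.15 ± 0.22 (adjusted p = 0.0216), and the groups were separate. Stard4, a cytosolic sterol carrier, did not pass (-0.34 ± 0.09, adjusted p = 0.0627). Srebf2, which encodes SREBP2, gave -0.08 ± 0.11 (adjusted p = 0.703).

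**Figure D2:**
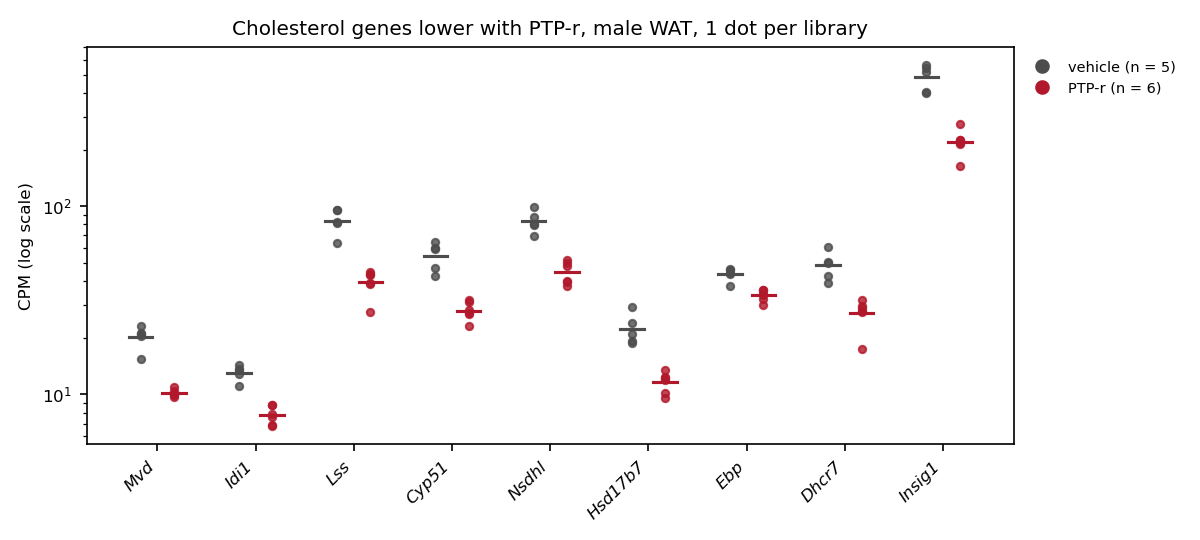
CPM (log axis) of 8 listed cholesterol genes that fell and of Ebp in each male WAT library, in the order of the pathway, with 1 point per library and bars at the group means. For all 9 genes every PTP-r point lies below every vehicle point.

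Promoter sequence is shown because these genes moved together. RefSeq promoters (GRCm38.p6) were matched for 14 of the 22 genes, as 17 start-site windows of 250 bases before the start. The letters CCAAT, the core of the binding site of the factor NF-Y that acts beside SREBP, were found on either strand in 14 of the 17 windows and in all 14 genes, against 33.8% of 32851 such windows of all genes (11120 windows). The sterol response element spelled TCACNCCAC was found on either strand in 1 of the 17 windows, that of Hmgcs1, against 1.05% (346) of all windows. A match is a description of letters, not a binding site. The start is that of RefSeq. For Lss, Cyp51 and Hsd17b7 it lies inside the GENCODE gene span given above, so part of each of these stretches falls within that span. The stretches from 150 bases to 1 base before the start are given for 4 genes that fell and for Hmgcs1, each 5′ to 3′ on the gene's strand, with every match to either motif in capitals.
Lss (chr10:76531455-76531604, plus strand): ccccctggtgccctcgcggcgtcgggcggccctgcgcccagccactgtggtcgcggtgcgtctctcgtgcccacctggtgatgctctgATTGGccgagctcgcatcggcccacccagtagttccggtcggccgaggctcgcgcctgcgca
Cyp51 (chr5:4104698-4104847, minus strand): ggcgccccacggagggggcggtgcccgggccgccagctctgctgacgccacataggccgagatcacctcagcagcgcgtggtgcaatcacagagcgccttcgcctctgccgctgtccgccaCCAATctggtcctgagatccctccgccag
Hsd17b7 (chr1:169969206-169969355, minus strand): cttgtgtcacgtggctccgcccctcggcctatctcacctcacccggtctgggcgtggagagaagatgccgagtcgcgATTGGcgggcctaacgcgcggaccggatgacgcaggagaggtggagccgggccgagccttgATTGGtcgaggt
Mvd (chr8:122443423-122443572, minus strand): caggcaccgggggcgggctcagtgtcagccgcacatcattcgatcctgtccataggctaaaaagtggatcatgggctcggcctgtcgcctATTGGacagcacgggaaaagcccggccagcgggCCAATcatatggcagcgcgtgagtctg
Hmgcs1 (chr13:119690201-119690350, plus strand): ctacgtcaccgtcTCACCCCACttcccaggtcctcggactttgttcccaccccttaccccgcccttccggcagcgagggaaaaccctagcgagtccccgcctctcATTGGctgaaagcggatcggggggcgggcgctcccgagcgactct

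The number of cholesterol genes called moved with the libraries. Without vehicle 4 the count was 0, with adjusted p-values of 0.0662 to 0.0799 for Lss, Cyp51, Hsd17b7, Mvd and Idi1, without vehicle 3 it was 5, and without the other 9 libraries in turn it was 7 to 11; without both PTP-r 1 and PTP-r 2 it was 7. It was 0 with the mesothelium sum as a covariate, where the list's median was -0.86 and 16 genes were lower at an unadjusted p under 0.05, and 0 without the 5 marker-high libraries, where the median was -0.71 and 17 were lower at that p.

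Genes of fatty acid and triglyceride synthesis gave 1 call. Of 23 listed genes, 0 fell and 1, Pck1, rose by the adjusted test (0.462% of all genes were called higher). At an unadjusted p under 0.05, 8 were lower (6.93% of all genes). In 8 the groups did not overlap, all lower (2.33% of all genes in that direction). DESeq2 called 6 lower and limma voom 5, where the 2 tools called 1135 and 1120 of all genes in either direction. The median of the list was -0.11, against 0.04 for all genes. Fasn, the fatty acid synthase, had 4799, 4339, 5676, 4347 and 4734 CPM with vehicle and 1725, 2387 and 4217 CPM with PTP-r. Every PTP-r library was below every vehicle library, yet the gene did not pass (-0.80 ± 0.40, adjusted p = 0.252). Scd2, a stearoyl-CoA desaturase, had 1222, 1092, 1509, 1160 and 1250 CPM with vehicle and 347, 543 and 811 CPM with PTP-r, also without overlap (-1.12 ± 0.29, adjusted p = 0.0613). Malic enzyme, Me1, which supplies NADPH, gave -0.88 ± 0.23 (adjusted p = 0.0578), and Agpat2, an acyltransferase of triglyceride synthesis, -0.79 ± 0.21 (adjusted p = 0.0672), both with separate groups. Pck1, whose enzyme supplies glycerol 3-phosphate in fat, had 459, 371, 1267, 1134 and 564 CPM with vehicle and 1147, 1781 and 2309 CPM with PTP-r. The groups overlapped through vehicle 9, and Pck1 rose by 1.21 ± 0.29 (adjusted p = 0.0488).

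Among secreted and lipid-handling proteins of the adipocyte, the insulin-induced lipase regulator Angptl8 fell. It had 17.9, 26.6, 15.5, 11.4 and 14.8 CPM with vehicle and 4.12, 5.41 and 8.19 CPM with PTP-r, with no overlap, and fell by 1.62 ± 0.32 (adjusted p = 0.0263). Leptin (Lep), the hormone that reports fat stores, had 4014, 4218, 3684, 3553 and 3879 CPM with vehicle and 1199, 2069 and 2436 CPM with PTP-r. All PTP-r libraries were below all vehicle libraries, but Lep did not pass (-0.94 ± 0.31, adjusted p = 0.107). The fatty acid carrier Fabp5 also had separate groups, 218 to 303 CPM with vehicle and 74.98 to 189 CPM with PTP-r, and did not pass (-0.79 ± 0.20, adjusted p = 0.0557). Adipsin, Cfd, ranged widely, over 345 to 1305 CPM with vehicle and 455 to 4337 CPM with PTP-r (1.57 ± 0.44, adjusted p = 0.0747). Of 18 adipokine genes tested 1, Angptl8, fell (0.411% of all genes were called lower) and 0 rose. Of 20 genes of adipocyte identity 1, Cebpd, rose (0.462% of all genes were called higher) and 0 fell. Cebpd, an early adipogenic transcription factor, was 20.1 to 22.9 CPM with vehicle and 23.2 to 34.8 CPM with PTP-r, a rise of 0.43 ± 0.10 (adjusted p = 0.0381).

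Major adipocyte genes did not pass. Pparg, the master adipogenic receptor, gave 0.03 ± 0.14 (adjusted p = 0.939), the lipid droplet coat Plin1 0.13 ± 0.15 (adjusted p = 0.648) and adiponectin (Adipoq) 0.29 ± 0.16 (adjusted p = 0.306). The droplet protein Cidec gave -0.23 ± 0.14 (adjusted p = 0.356) and the fatty acid translocase Cd36 -0.23 ± 0.13 (adjusted p = 0.343).

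A gene of sterol export and one of sterol oxidation rose. Apoe (ENSMUSG00000002985, chromosome 7, 19696109 to 19699188), the apolipoprotein that carries cholesterol out of fat cells and macrophages, had 2103, 2089, 2602, 2732 and 2345 CPM with vehicle and 3054, 4006 and 4428 CPM with PTP-r. The groups did not overlap, and Apoe rose by 0.67 ± 0.12 (adjusted p = 0.0184). Cyp27a1 (ENSMUSG00000026170, chromosome 1, 74713574 to 74737892), the mitochondrial sterol 27-hydroxylase, had 56.02, 44.2, 54.1, 60.6 and 60.1 CPM with vehicle and 67.2, 78.1 and 86.4 CPM with PTP-r. It too rose without overlap, by 0.49 ± 0.09 (adjusted p = 0.0184).

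Detoxification genes gave single calls. Gpx3, the secreted glutathione peroxidase, had 294, 218, 290, 375 and 254 CPM with vehicle and 427, 532 and 964 CPM with PTP-r and rose by 1.04 ± 0.20 (adjusted p = 0.0216). The highest value was in PTP-r 1, and the groups did not overlap with or without it. Of 25 antioxidant genes listed, Gpx3 was the 1 that rose (0.462% of all genes were called higher) and 0 fell. Gstt1, a theta-class glutathione transferase, had 36.2, 30.3, 42.5, 49.2 and 34.1 CPM with vehicle and 53.5, 61.9 and 102 CPM with PTP-r and rose by 0.82 ± 0.16 (adjusted p = 0.0216). Its paralog Gstt3, whose reads may be shared with it, gave 0.56 ± 0.19 (adjusted p = 0.112).

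**Figure D3:**
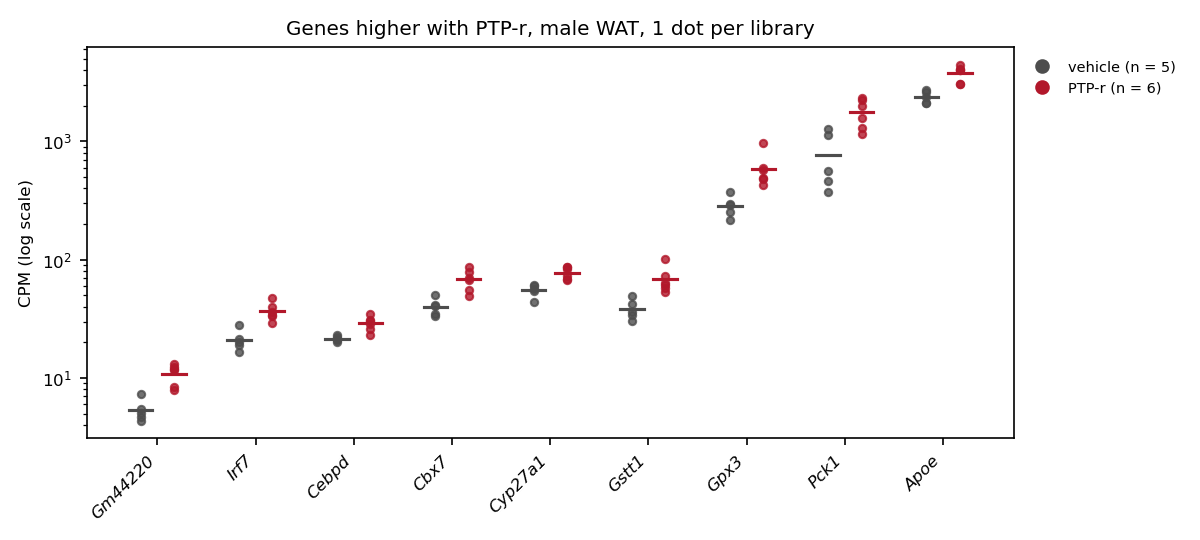
CPM of 9 genes that rose with PTP-r in each male WAT library (log axis), 1 point per library, with bars at the group means. The PTP-r points lie above all vehicle points except for Pck1 and Cbx7, where the groups overlap.

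Cbx7 and Irf7 headed the genes that rose. Cbx7, a chromobox subunit of Polycomb repressive complex 1, had 34.8, 33.6, 40.2, 50.04 and 41.4 CPM with vehicle and 48.8, 68.7 and 87.04 CPM with PTP-r; only the lowest PTP-r and the highest vehicle library overlapped, and it rose by 0.77 ± 0.14 (adjusted p = 0.0156). Irf7, the interferon-induced transcription factor, had 27.9, 20.03, 16.7, 19.04 and 21.2 CPM with vehicle and 29.3, 35.4 and 47.5 CPM with PTP-r. Its groups were separate, with a rise of 0.81 ± 0.14 (adjusted p = 0.0156). Of 29 interferon response genes tested, Irf7 was the 1 that rose (0.462% of all genes were called higher) and 0 fell; 14 were higher at an unadjusted p under 0.05 (13.9% of all genes), with a list median of 0.37. The antiviral genes Oas2, Oasl2 and Isg20 gave 0.85 ± 0.21, 0.87 ± 0.22 and 0.62 ± 0.15, none of them called. The interferon count was 6 without PTP-r 1 and PTP-r 2 and was 0 without vehicle 4, without the 5 marker-high libraries or with the mesothelium sum as a covariate, and DESeq2 gave 8 and limma voom 11. DESeq2 and limma voom called 1135 and 1120 of all genes in either direction.

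Genes of other kinds also led those that rose. Zfp579, a zinc finger gene, was 21.9 to 25.3 CPM with vehicle and 30.8 to 33.3 CPM with PTP-r (0.46 ± 0.09, adjusted p = 0.0216). Sfi1, a centrosomal protein gene, was 16.1 to 20.5 CPM with vehicle and 22.99 to 29.3 CPM with PTP-r (0.50 ± 0.10, adjusted p = 0.0243). Ankzf1, of mitochondrial and ribosomal quality control, rose by 0.37 ± 0.07 (adjusted p = 0.0243), and Fam193b by 0.36 ± 0.07 (adjusted p = 0.0249). The annotated loci Gm44220 and Gm20559, neither listed as protein coding, rose by 1.02 ± 0.18 (adjusted p = 0.0169) and 0.55 ± 0.10 (adjusted p = 0.0184). None of these groups overlapped.

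Other leading genes that fell came from several functions. Stk38l (ENSMUSG00000001630, chromosome 6, 146724995 to 146778812), a kinase of the NDR family, had 32.4, 38.3, 25.5, 27.6 and 30.4 CPM with vehicle and 17.9, 19.7 and 23.6 CPM with PTP-r and fell by 0.62 ± 0.10 (adjusted p = 0.0122). The groups were separate. Pcdh12, an endothelial protocadherin, had 27.9, 31.8, 28.1, 28.4 and 27.5 CPM with vehicle and 12.8, 17.6 and 19.4 CPM with PTP-r and fell by 0.75 ± 0.13 (adjusted p = 0.0131), again without overlap. Tmem38b, a potassium channel of the endoplasmic reticulum, fell by 0.56 ± 0.10 (adjusted p = 0.0156), the small GTPase gene Rrad by 0.82 ± 0.15 (adjusted p = 0.0169) and the cyclophilin gene Ppic by 0.63 ± 0.12 (adjusted p = 0.0184). The endothelial markers Pecam1 and Kdr gave -0.14 ± 0.12 and -0.21 ± 0.13, neither called.

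The collagen IV chains of the basement membrane and Sparc fell. Of 34 collagens and matrix glycoproteins, 3 fell and 0 rose, against 0.411% of all genes called lower, 12 were lower (6.93% of all genes) and 1 higher (13.9%) at an unadjusted p under 0.05, and the list median was -0.36. With the mesothelium sum as a covariate the median was -0.10, with 0 calls and with 1 lower and 2 higher at that p. Col4a1 had 2821, 3297, 2778, 2611 and 2770 CPM with vehicle and 1103, 1972 and 2151 CPM with PTP-r and fell by 0.61 ± 0.14 (adjusted p = 0.0398). Its partner chain Col4a2, which shares a promoter region with it, had 2348, 2811, 2228, 2213 and 2216 CPM with vehicle and 908, 1543 and 1659 CPM with PTP-r and fell by 0.70 ± 0.15 (adjusted p = 0.0342). Both were lowest in PTP-r 1 and highest in vehicle 4, and no library crossed between groups. Sparc, a matrix protein that binds collagen IV, had 5984, 6408, 5552, 5284 and 5675 CPM with vehicle and 2402, 3599 and 4190 CPM with PTP-r and fell by 0.70 ± 0.15 (adjusted p = 0.0347). The fibrillar collagen Col1a1 gave -0.56 ± 0.28 (adjusted p = 0.256), and Col6a1 and Col6a2 -0.56 ± 0.14 and -0.67 ± 0.18, none called. The count of 3 was 0 without vehicle 3, vehicle 4, vehicle 9, vehicle 12 or PTP-r 6, 0 without PTP-r 1 and PTP-r 2 together, 1 without PTP-r 7 or PTP-r 11 and 5 without PTP-r 2 alone. The lower pericyte and smooth muscle markers moved with this group, and their part in it was not tested.

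Acute-phase and inflammatory genes gave a few falls. Of 23 acute-phase genes tested, 2 fell (Serpina3n and Serpina3m) and 1 rose (Cebpd), with a list median of 0.33. Of all genes, 0.411% were called lower and 0.462% higher. Serpina3n, a serine protease inhibitor made by fat and liver, had 534, 603, 600.3, 584 and 512 CPM with vehicle and 243, 362 and 501 CPM with PTP-r and fell by 0.63 ± 0.15 (adjusted p = 0.0427). The lower paralog Serpina3m fell by 1.19 ± 0.27 (adjusted p = 0.0389), with 5.56 to 8.46 CPM under vehicle and 1.02 to 4.04 CPM under PTP-r, and reads may be split between such near copies. Lbp, the lipopolysaccharide carrier, was 438 to 523 CPM with vehicle and 215 to 336 CPM with PTP-r (-0.76 ± 0.23, adjusted p = 0.0910), and Saa3, the serum amyloid gene of fat and macrophages, was 25.4 to 48.3 and 6.03 to 26.6 CPM (-1.23 ± 0.41, adjusted p = 0.109). Neither passed. S100a8, a calprotectin subunit of neutrophils, had 8.78, 17.7, 4.73, 8.46 and 5.28 CPM with vehicle and 1.62, 2.92 and 3.24 CPM with PTP-r and fell by 1.74 ± 0.41 (adjusted p = 0.0478), without overlap. It was the 1 call among 7 neutrophil markers tested, of which 4 had a positive and 3 a negative fold change (median 0.09). Summed neutrophil markers differed by -0.17 (exact permutation test, p = 0.724 after adjustment over 21 marker lists). The monocyte chemokine Ccl2 gave -0.88 ± 0.38 (adjusted p = 0.193), and the genes of lipid-laden macrophages Trem2 and Gpnmb gave -0.29 ± 0.58 and -0.15 ± 0.81, none called. The siderophore carrier Lcn2 was 259 CPM in PTP-r 1 and 66.2 CPM in vehicle 10 and under 21 CPM elsewhere, and its fold change of 1.04 ± 1.13 turned to -1.76 without PTP-r 1.

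Of 18 transcription factors that mark fat depots, 2 rose (0.462% of all genes were called higher) and 0 fell, with a list median of 0.38, and with the mesothelium sum as a covariate 0 of 15 rose, at a median of 0.17. Hoxa5, a homeobox gene of fat progenitors, had 9.47, 7.78, 10.2, 10.3 and 7.82 CPM with vehicle and 11.99, 12.6 and 20.2 CPM with PTP-r and rose by 0.60 ± 0.13 (adjusted p = 0.0338). Gata6, a factor of visceral mesothelium and macrophages of the peritoneum, had 12.8, 10.3, 14.97, 12.5 and 12.9 CPM with vehicle and 16.1, 20.2 and 21.6 CPM with PTP-r and rose by 0.62 ± 0.15 (adjusted p = 0.0488). Neither pair of groups overlapped. Genes known from the mesothelium had larger fold changes and wide spread, namely Wnt2b with 2.10 ± 0.52, Bnc1 with 1.73 ± 0.50, Rspo1 with 1.35 ± 0.35 and Wt1 with 1.06 ± 0.39, at adjusted p-values of 0.0551, 0.0787, 0.0611 and 0.132. The mesothelium sum, 137 to 256 CPM in vehicle libraries and 241 to 677 CPM in PTP-r libraries, moved with these genes. With that sum as a covariate Rspo1 was at -0.018. Of 28 Wnt pathway genes 1, Wnt5a, a ligand made by progenitors, fell by 0.34 ± 0.08 (adjusted p = 0.0478) and 0 rose. Of all genes, 0.411% were called lower. The imprinted gene Nnat, which is high in adipocytes, had 458, 379, 895, 915 and 560.2 CPM with vehicle and 933, 1379 and 1707 CPM with PTP-r and did not pass (1.04 ± 0.25, adjusted p = 0.0511).

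The prohibitin genes did not pass. Phb had 79.5, 81.4, 90.7, 88.3 and 81.96 CPM with vehicle and 70.6, 79.2 and 91.5 CPM with PTP-r (-0.07 ± 0.08, adjusted p = 0.679), and Phb2 98.5, 100.5, 108, 102 and 102 CPM with vehicle and 93.4, 105 and 109 CPM with PTP-r (0.01 ± 0.08, adjusted p = 0.979). The groups overlapped almost wholly for both. edgeR, DESeq2 and limma voom each called 0 of 18 genes of the prohibitin complex and inner membrane quality control (list median -0.00, 1 at an unadjusted p under 0.05), 0 of 62 nuclear respiratory chain subunits (median 0.07, 1 unadjusted), 0 of 13 genes of mitochondrial DNA (median 0.05, 0 unadjusted) and 0 of 24 genes of fatty acid oxidation (median -0.07, 0 unadjusted). Ucp1, the uncoupling protein of brown fat, lay between 0 and 1.52 CPM.

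The cell cycle and clock lists had no calls by edgeR. All 30 cell cycle genes had a negative fold change, with a median of -0.44 and 11 at an unadjusted p under 0.05 (6.93% of all genes were lower). edgeR called 0, DESeq2 1 and limma voom 14. DESeq2 and limma voom called 1135 and 1120 of all genes in either direction. Without vehicle 4, 3 were at an unadjusted p under 0.05, without PTP-r 1 and PTP-r 2, 18 were, without the 5 marker-high libraries 23 were, and with the mesothelium sum as a covariate 0 were, at a median of -0.26. Among 19 clock genes, edgeR called 0, DESeq2 2 higher and 2 lower and limma voom 3 higher and 1 lower; 7 were higher (13.9% of all genes) and 2 lower (6.93%) at an unadjusted p under 0.05, with a median of 0.44. With the mesothelium sum as a covariate 0 were higher and 1 lower, at a median of 0.08. The hour of tissue collection was not analysed here.

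**Figure D4:**
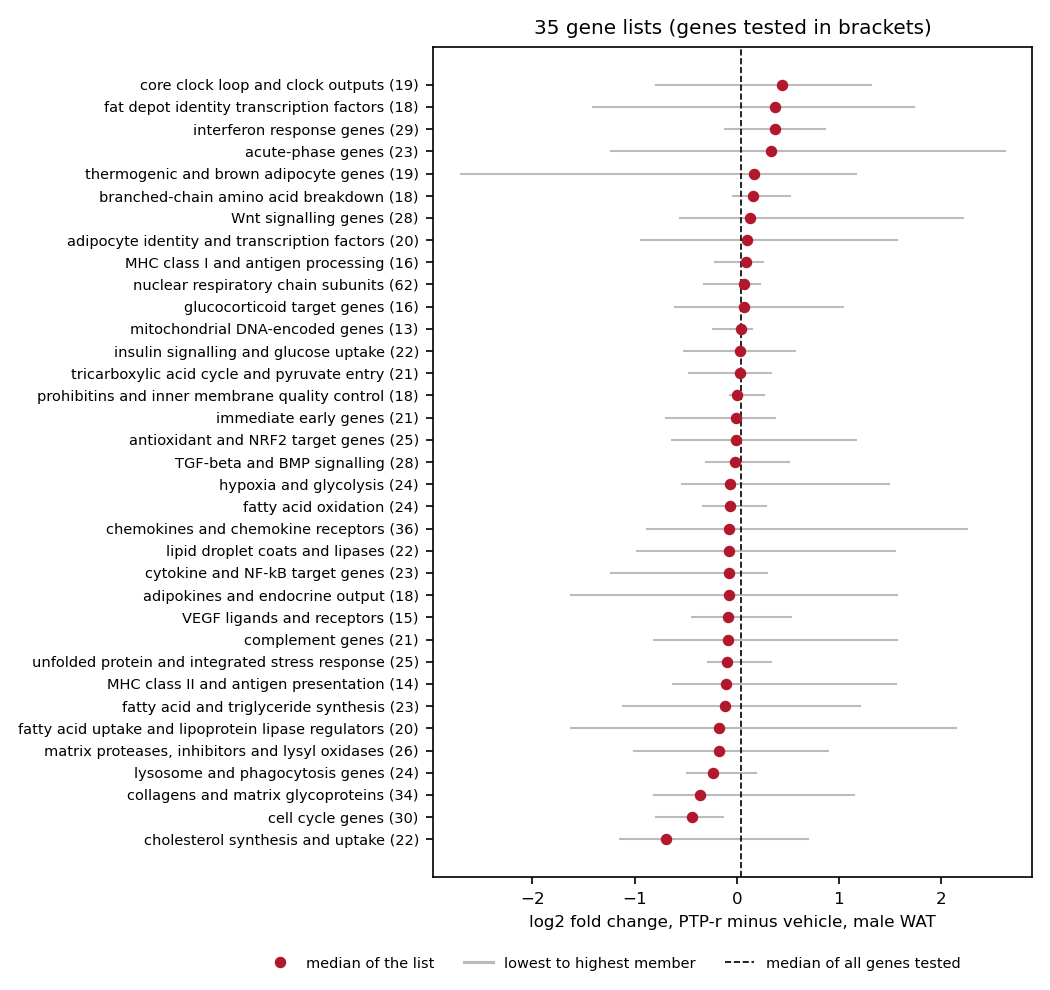
Median log2 fold change (PTP-r minus vehicle, red points) and range of members (grey bars) of 35 gene lists in male WAT, with the median of all genes tested as a dashed line. Cholesterol synthesis and uptake has the lowest median, -0.69, followed by the cell cycle list at -0.44 and the collagen list at -0.36.

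Female WAT, 6 PTP-r and 6 vehicle libraries of the same diet and schedule, was used to ask which male changes were shared. edgeR called 0 of 17765 genes there, with 2909 at an unadjusted p under 0.05 (16.4%), while DESeq2 called 594 and limma voom 371. Of the 155 genes called in males, 136 had the same sign in females, and 70 of these also had an unadjusted p under 0.05. Of all genes, 7.99% were higher and 8.39% lower in females at that p. The share of all genes with the same sign in both sexes was not computed, so the count of 136 has no background. Both sexes also share 1 estimate of spread per gene. The test of the difference between the sexes called 0 genes (1520 at an unadjusted p under 0.05, 8.56%; DESeq2 79, limma voom 0), so edgeR showed no male change to be particular to males. Female libraries also differed in markers of other tissues. Skeletal muscle markers summed to 108 to 201 CPM in the female vehicle libraries and 125 to 1833 CPM in the female PTP-r libraries, with 17 of 19 higher at an unadjusted p under 0.05 (7.99% of all genes) and a median log2 fold change of 4.36. Pericyte and smooth muscle markers summed to 1310 to 3423 CPM with vehicle and 1278 to 12400 CPM with PTP-r, with 9 of 15 higher at that p and a median of 1.09. Mesothelium markers summed to 221 to 789 CPM with vehicle and 253 to 824 CPM with PTP-r, with a median of -0.09. Of the 16, 11 had an unadjusted p under 0.05 for the difference between the sexes (8.56% of all genes) and 0 an adjusted one. The part of these marker lists in the comparison of the sexes was not tested. For the cholesterol list the female median was -0.25, with 8 genes lower at an unadjusted p under 0.05 (8.39% of all genes). Lss gave -0.26 ± 0.17 in females, a male minus female difference of -0.82 ± 0.25, and Cyp51 gave -0.19 ± 0.15, a difference of -0.78 ± 0.22. Of the 22 genes, 10 had an unadjusted p under 0.05 for that difference and 0 an adjusted one.

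**Figure D5:**
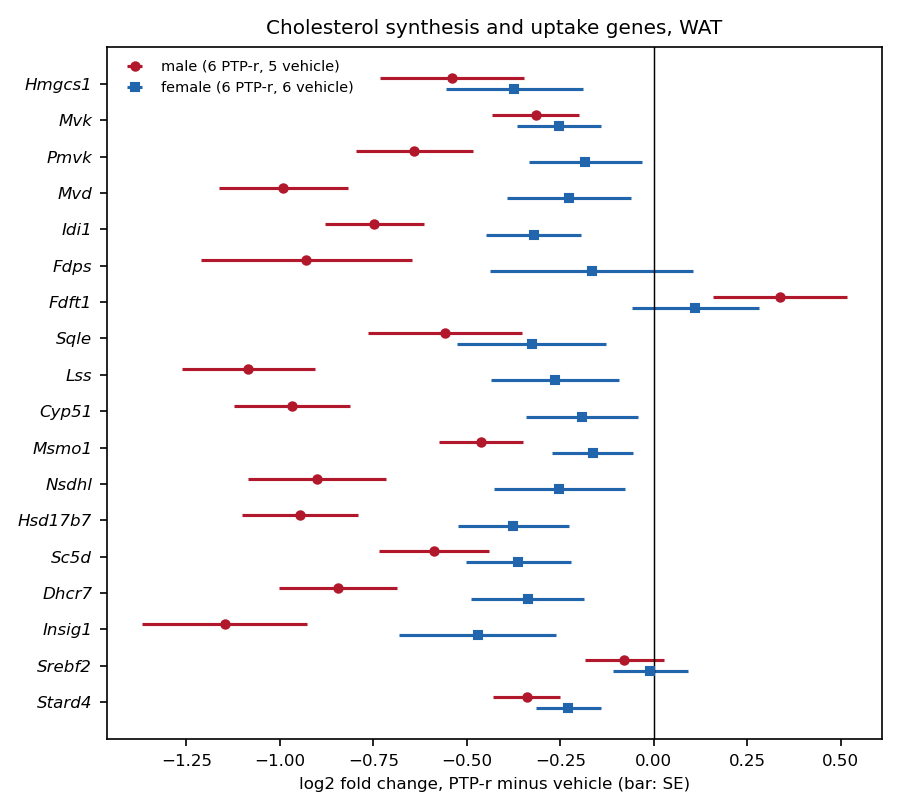
Log2 fold change with its standard error of 18 cholesterol synthesis and uptake genes in male and in female WAT. The male values are the more negative for most genes, as for Lss and Cyp51, and no difference between the sexes passed the adjusted test.

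Some genes had close values in both sexes and others did not. Angptl8 gave -1.32 ± 0.30 in females, Lep -1.18 ± 0.30, Gpx3 0.83 ± 0.19, Sparc -0.64 ± 0.15, Serpina3n -0.67 ± 0.14 and Pcdh12 -0.63 ± 0.12, and for each the male minus female difference was smaller than its SE. Apoe gave 0.08 ± 0.12 in females (difference 0.58 ± 0.17), Cyp27a1 -0.22 ± 0.09 (difference 0.71 ± 0.13) and Stk38l 0.09 ± 0.09 (difference -0.72 ± 0.13), none passing the adjusted test of the difference. Bmyc and Ccl24, a Myc family gene and an eosinophil chemokine, had the other leading positive differences (0.66 ± 0.14 and 1.34 ± 0.28), and the calsyntenin gene Clstn3 and muscle phosphorylase Pygm the negative ones (-1.34 ± 0.30 and -2.36 ± 0.54). The libraries highest in muscle markers were vehicle 3 in males and PTP-r 1 in females. With single libraries left out the Pygm difference ranged from -2.56 to -1.80, the latter without female PTP-r 1.

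Male liver, with 6 PTP-r and 5 vehicle libraries, gave a tested contrast. In a fit of all 46 libraries, 498 of 19135 genes differed between the male WAT effect and the male liver effect (2.6%), 184 higher (0.962%) and 314 lower (1.64%) in WAT relative to liver. Of the 22 cholesterol genes, 7 had a lower effect in WAT and 0 a higher one. Their median log2 fold change was -0.71 in WAT and 0.47 in liver in this fit, and the median difference was -1.06, against 0.05 for all genes. Lss gave 0.54 ± 0.25 in liver, where it ranged from 63.1 to 153 CPM with vehicle and 108 to 189 CPM with PTP-r, and the difference was -1.64 ± 0.35 (adjusted p = 0.00938). Insig1 gave 0.14 ± 0.25 in liver and a difference of -1.30 ± 0.36 (adjusted p = 0.0389). The liver groups overlapped for both genes.

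Saa3, S100a8, Ccl2, Cxcl9 and Tlr2 led the genes with a lower effect in WAT than in liver. Saa3 gave -1.25 ± 0.36 in male WAT and 3.56 ± 0.41 in male liver, a difference of -4.80 ± 0.54 (adjusted p = 7.72e-07). The liver values were 2.68 to 6.10 CPM with vehicle and 37.9 to 54.7 CPM with PTP-r, without overlap. S100a8, Ccl2 and the T cell chemokine Cxcl9 differed by -3.61 ± 0.56, -3.27 ± 0.51 and -2.36 ± 0.37 (adjusted p = 0.000317 for each), and the pattern receptor Tlr2, near 0 in WAT (-0.09 ± 0.19) and at 1.93 ± 0.21 in liver, by -2.02 ± 0.28 (adjusted p = 0.000110). Mean liver levels were low for S100a8, at 0.25 CPM with vehicle and 0.95 CPM with PTP-r, and for Ccl2, at 0.69 and 3.63 CPM. In the other direction, Gm44220 differed by 1.67 ± 0.26, Hoxa5 by 1.71 ± 0.29, Gstt1 by 0.95 ± 0.18, Gstt3 by 1.12 ± 0.23 and the ubiquitin ligase gene Mylip by 0.90 ± 0.18, at adjusted p-values of 0.000317, 0.00133, 0.00486, 0.00766 and 0.00754. Their liver fold changes were negative, at -0.67, -1.13, -0.14, -0.58 and -0.65 in that order. Mean liver levels were low for Gm44220, at 1.21 CPM with vehicle and 0.77 CPM with PTP-r, and for Hoxa5, at 0.60 and 0.27 CPM. The count of 498 was 164 without vehicle 3, 227 without vehicle 4, 300 without vehicle 12, 301 without PTP-r 1, 758 without vehicle 10, 903 without PTP-r 2 and 918 without PTP-r 7, each fit leaving out that WAT library.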

How the data were processed

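PolyA RNA of whole WAT was sequenced, 1 library per sample. HTSeq, STAR 2.4.0i and the build mm10 are named in the submitters' processing notes; the annotation release is not given in the sources used here. The deposited files hold counts, whole reads per gene made by the authors, in 1 unstranded column and 2 stranded ones. The stranded column that held 96.0% to 96.5% of stranded reads in every male WAT library was used. Rows that name no gene held 18.4% to 28.7% of reads (median 20.6%), the most in vehicle 4, and were left out. Of 55487 gene IDs, 55227 matched GENCODE M21, from which names and mm10 positions come. In 25 pairs of same-group libraries checked, counts differed by more than sampling noise (chi-square per degree of freedom 12.5 to 155).

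edgeR 4.0.16 in R 4.3.3 fitted all 23 WAT libraries in 4 groups of sex and treatment, with TMM scaling, filterByExpr (minimum count 10, minimum total 15) and the quasi-likelihood test; the contrast between organs used all 46 libraries. SEs are the log2 fold change divided by the square root of F. Marker sums were compared by an exact two-sided permutation test over libraries. DESeq2 1.42.0, limma 3.58.1 (voom with quality weights), other scalings, filters and left-out libraries were alternatives.

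Named genes were the 12 with the smallest p among those called in each direction with a mean of at least 5 CPM, at most 4 called genes per list and 3 further members of lists with many calls, the leading genes of the sex and organ contrasts, and a fixed group; Nsdhl, Dhcr7, Insig1 and the other cholesterol genes were described after their values were seen. A few listed genes, although counted in their lists, are not reported here. The members and the lists were chosen with earlier results of these data known. Each male title number carries the same treatment in WAT and in liver, so the libraries of a number may come from the same mouse. Of 11 same-numbered pairs, 0 had a correlation of deviations over 0.1. A low correlation between organs cannot decide whether a mouse was shared, so the pairing of WAT with liver remains unknown.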

Additional observations from a re-analysis of the deposited data

Results flagged for a closer look

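Among 306 sets of 5 or 6 male WAT values that were checked, 30 (9.8%) held a library whose gap to its neighbour was a larger part of the range than Dixon's critical value (0.625 for 6 libraries, 0.71 for 5), where chance gives about 1 in 20. PTP-r 1 accounted for 12 of the 30, vehicle 4 for 4, PTP-r 7 and vehicle 10 for 3 each, and PTP-r 2, vehicle 3 and vehicle 9 for 2 each.

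PTP-r 1 was far from the other 5 PTP-r libraries with Ankzf1 at 29.2 CPM, Gpx3 at 964 CPM, Gstt3 at 21.1 CPM, Hoxa5 at 20.2 CPM and Lcn2 at 259 CPM above them. It was below them with Col4a1 at 1103 CPM, Col4a2 at 907.5 CPM, Ctnnb1 at 362 CPM, Fabp5 at 75.0 CPM and Lss at 27.4 CPM. Its summed lymphatic endothelium markers were 135 CPM and its mammary and skin epithelium markers 56.2 CPM, both above the rest. PTP-r 7 was high in T and NK cell markers at 293 CPM, in B and plasma cell markers at 5189 CPM and in Dnase1l3 at 10.8 CPM. PTP-r 2 was low in Serpina3m at 1.02 CPM and high in Ucp1 at 1.52 CPM, and PTP-r 11 was high in the summed clock genes at 1262 CPM.

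Vehicle 4 was above the other vehicle libraries with Cd36 at 5230 CPM, Clstn3 at 61.8 CPM, Col4a2 at 2811 CPM and Pcdh12 at 31.8 CPM. Vehicle 10 was low in Ebp at 37.8 CPM and high in Lcn2 at 66.2 CPM and in mammary and skin epithelium markers at 19.5 CPM. Vehicle 3 was high in skeletal muscle markers at 501 CPM and in the muscle phosphorylase Pygm at 19.3 CPM. Vehicle 9 was high in epididymis markers at 129 CPM and in Sod2 at 247 CPM, and vehicle 12 in Cxcl9 at 67.1 CPM.

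The PTP-r effect in male WAT minus that in male liver passed the adjusted interaction test for 10 named genes. On the log2 scale it was -4.80 ± 0.54 for Saa3, -3.61 ± 0.56 for S100a8, -3.27 ± 0.51 for Ccl2, -2.36 ± 0.37 for Cxcl9 and -2.02 ± 0.28 for Tlr2. It was 1.71 ± 0.29 for Hoxa5, 1.67 ± 0.26 for Gm44220, 1.12 ± 0.23 for Gstt3, 0.95 ± 0.18 for Gstt1 and 0.90 ± 0.18 for Mylip. Liver levels of S100a8, Ccl2, Hoxa5 and Gm44220 were low, as given with the organ contrast.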

How the results depend on the processing

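The count of 155 genes called in male WAT was 1135 with DESeq2, 1120 with limma voom, 35 with no expression filter (9 higher and 26 lower, against 82 and 73), 50 without PTP-r 1 and PTP-r 2, 12 without the libraries high in epididymis markers, 14 without the one high in muscle markers, 41 without the one high in B cell markers, 9 with epididymis and B cell sums as covariates, and 0 without all 5 of these libraries or with the mesothelium sum as a covariate. With only the 11 male libraries it was 113, with 40 higher and 73 lower, of which 56 were among the 155. The fits with covariates also held only these 11 libraries. Leaving out single libraries gave 0 to 272. It was 141 to 223 under the other scaling, the 1 CPM filter, the unstranded counts and a term for low against high title numbers. The 9 cholesterol genes were 16 with DESeq2, 17 with limma voom, 3, 5 and 8 without the epididymis, muscle and B cell libraries, 5 with the 2 covariates and 0 without all 5 or with the mesothelium covariate, and 0 to 11 with single libraries left out. The 3 matrix genes were 7 with DESeq2, 8 with limma voom, 0 with no filter, 1 with the male libraries only, 1 without the B cell library, 0 under the other library exclusions and covariates, and 0 to 5 with single libraries left out.

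Female WAT, with 0 calls, gave 594 with DESeq2, 371 with limma voom, 20 with a minimum of 1 CPM and 0 to 194 with single libraries left out. The sex difference, with 0 calls, gave 79 with DESeq2, 1 without PTP-r 1 and PTP-r 2 and 0 to 13 with single libraries left out. The organ difference of 498 genes was 858 with DESeq2, 207 with the 22 male libraries only, 764 without the 5 libraries and 164 to 918 with single ones left out. The cause of these shifts was not tested. The fits without PTP-r 1 and PTP-r 2 and with the mesothelium sum were chosen after seeing the data.

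With the description number as a replicate block, the male WAT, cholesterol and matrix counts were each 0, the female count 34 and the sex difference 0; the block by title number gave 231 for the organ difference. The male groups share only number 6 in their descriptions. Between organs, 3 of 11 libraries correlated best with their own title number. That count cannot decide whether WAT and liver of a number came from the same mouse. The main fit of the organ difference took the libraries as unpaired.

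No named call reversed. Among genes that were not called, signs turned as follows, at adjusted p-values of at least 0.146. With the mesothelium covariate the values were 0.014 for Cd36, -1.09 for Dnase1l3, 0.82 for Gpnmb, 0.029 for Hmox1, 0.15 for Icam1, -3.60 for Lcn2, 0.014 for Pecam1, -0.055 for Phb2, -0.23 for Pparg, -0.018 for Rspo1 and 0.65 for Trem2. Without all 5 libraries they were 0.061 for Cidec, -0.81 for Dnase1l3, 0.016 for Kdr, -2.22 for Lcn2, 0.045 for Phb and -1.09 for Ucp1. Without PTP-r 1 and PTP-r 2 they were 0.032 for Icam1, -1.76 for Lcn2, -0.0074 for Phb2 and -0.039 for Ucp1. With limma voom they were -0.13 for Dnase1l3, -1.19 for Lcn2 and -0.24 for Ucp1. With the replicate block they were -0.52 for Dnase1l3, 0.071 for Icam1, -0.055 for Phb2 and -0.26 for Pparg. Without the muscle library they were 0.039 for Gpnmb, 0.038 for Icam1, -0.0092 for Phb2 and -0.028 for Pparg. With the 2 covariates they were -0.41 for Dnase1l3 and -0.78 for Lcn2, without the B cell library -0.58 for Dnase1l3, without the epididymis libraries -1.93 for Lcn2 and with the title number term 0.0086 for Icam1. Phb2 was at -0.0065 with DESeq2, -0.0066 with its size factors, -0.024 without a filter and -0.022 with unstranded counts. As means of single markers, epididymis gave -0.34, pancreas 0.16 and nerve 0.10.

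With single libraries left out, values crossed 0 for Dnase1l3 (-0.58 to 0.87), Gpnmb (-0.61 to 0.092), Icam1 (-0.14 to 0.089), Lcn2 (-1.76 to 1.88), Phb2 (-0.024 to 0.028), Pparg (-0.11 to 0.078) and Ucp1 (-0.22 to 1.33). The marker sums that crossed 0 were macrophages (-0.39 to 0.0036), T and NK cells (-0.31 to 0.29), B and plasma cells (-0.15 to 0.42), lymphatic endothelium (-0.16 to 0.0024), epididymis (-0.39 to 0.56), mammary and skin epithelium (-0.34 to 0.62) and nerve (-0.046 to 0.024). None of these was called. With 20991069 reads or more on genes, counting error is small for genes at high CPM but not for those near 0, such as Ucp1. The 6 and 5 libraries, with PTP-r 1 standing apart, limit the male means. The male p-values use a spread estimated over all 23 WAT libraries.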
